A study of Mus musculus with 40 samples.

Results

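Transcripts of the red blood cell lineage were followed through a mouse mammary gland series by means of 6 genes out of the 22552 in the deposited table. These were the adult alpha-globin genes Hba-a1 and Hba-a2, the adult beta-globin genes Hbb-b1, Hbb-b2 and Beta-s, and Alas2, which encodes the first enzyme of heme synthesis in erythroid cells. They were picked by symbol, with their values in these same groups already known, so every level and difference given for them describes the data and carries no test. All 6 reached 1 FPKM in at least 1 group. FPKM counts the fragments of a gene relative to the length of its transcript and to all mapped fragments.

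Poly(A) RNA was sequenced from whole mammary tissue of an outbred mouse line in 31 libraries, and the table gives 1 FPKM value per gene for each of 12 groups. At day 13 of pregnancy (p13) the groups were Ezh1 KO (E1-/-), Ezh2 KO (Ezh2f/f with MMTV-Cre), Ezh1 het Ezh2 KO (E1+/-;E2f/f with MMTV-Cre) and control (MMTV-Cre alone), each of 3 libraries. The same 4 genotypes were taken at day 18 (p18), with 2 libraries for Ezh1 KO and 3 for each of the others. Virgin females of 12 weeks gave Ezh2 KO and control glands 2 h after prolactin at 5 µg per g of body weight, and glands of both genotypes without prolactin, with 2 libraries in each of these 4 groups. The gland without hormone was removed by surgery before the injection and the gland of the other side was taken afterwards, so time, anaesthesia and wounding accompanied the hormone. Loss of Ezh1 was germline and thus reached every cell of the mouse, whereas Ezh2 deletion relied on a Cre driven by the mammary tumour virus promoter, and the Cre itself was present in controls and in both Ezh2-floxed genotypes. The genes Ezh1 and Ezh2 encode histone H3 methyltransferases, either of which can serve as the enzyme of Polycomb repressive complex 2.

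Ezh1 stood at 1.06 FPKM in Ezh1 KO against 14.7 in control at p13, and at 0.627 against 7.37 at p18. At p13, Ezh2 stood at 13.7 FPKM in Ezh2 KO against 12.9 in control, and at p18 at 6.41 against 10.0. Virgin Ezh2 KO glands had Ezh2 at 5.55 FPKM and control glands at 4.98 when no prolactin was given, and 4.64 in Ezh2 KO against 6.74 in control after prolactin, so Ezh2 KO below means the groups labelled in that way. Luminal epithelial markers of the labelled tissue were present in every group, with Krt8 between 152 and 399.5 FPKM and Epcam between 67.1 and 320. Milk protein genes made up 0.28% to 0.40% of the summed FPKM in virgin groups, 1.87% to 15.1% at p13 and 30.5% to 47.8% at p18. Because each group has 1 pooled value, the numbers below come without SD, n or p-value, differences could not be checked against replicates, and the depth of reading is not known.

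Adult hemoglobin joins alpha and beta chains around heme, and its messages are made in the marrow, spleen and fetal liver by erythroblasts and persist for a short time in the reticulocytes that enter the blood. Heme begins with the joining of glycine and succinyl-CoA, a step that ALAS2 carries out in erythroid cells and ALAS1 in the other tissues. The mammary gland is not known as a site of red cell production, and dissected tissue keeps blood in its vessels. Mice have a pair of nearly identical alpha genes, and their beta genes come in alternative haplotypes whose adult copies are also close in sequence. Beta-s is an older symbol of Hbb-bs. A read can match more than 1 copy, and the sources used here do not give how such reads were assigned. The alpha copies were therefore summed, which leaves 5 readings: the alpha-globin sum, Beta-s, Hbb-b1, Hbb-b2 and Alas2. The beta rows were kept apart although they can share reads, so a count of readings is not a count of independent genes. The difference of the beta-globin sum is given with the genotype comparisons at p13 and p18.

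The promoters of 4 of the 6 genes were matched in RefSeq on GRCm38.p6 and are shown because the alpha pair illustrates how alike its own copies are, and because globin and Alas2 levels ran in parallel below. Each line gives the 150 bases before the transcription start, 5′ to 3′ on the strand of the gene, with matches on either strand in capitals to the CCAAT box, to the CACCC element, to the TATAA box and to GATAA, the core bound by GATA factors. The expression files use the build mm9, and no coordinate was carried from one build to the other.
Hba-a1 (chr11:32283522-32283671, plus strand): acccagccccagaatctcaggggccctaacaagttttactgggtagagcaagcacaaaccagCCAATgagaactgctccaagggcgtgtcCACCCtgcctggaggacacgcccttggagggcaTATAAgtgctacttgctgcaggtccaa
Hba-a2 (chr11:32296342-32296491, plus strand): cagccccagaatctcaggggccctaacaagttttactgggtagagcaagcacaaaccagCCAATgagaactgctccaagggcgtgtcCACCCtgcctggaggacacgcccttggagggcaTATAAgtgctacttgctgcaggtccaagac
Hbb-bs, named Beta-s in the table (chr7:103827929-103828078, minus strand): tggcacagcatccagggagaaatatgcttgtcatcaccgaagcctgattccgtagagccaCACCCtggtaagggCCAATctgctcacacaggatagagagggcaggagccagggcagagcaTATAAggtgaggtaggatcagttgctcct
Alas2 (chrX:150547267-150547416, plus strand): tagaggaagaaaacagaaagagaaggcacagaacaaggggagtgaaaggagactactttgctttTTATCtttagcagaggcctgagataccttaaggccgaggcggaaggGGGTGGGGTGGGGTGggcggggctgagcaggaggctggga
The alpha entries shared an unbroken run of 297 of the 300 bases held for each promoter, offset by 3 bases, whereas the longest run shared by Hba-a1 and Hbb-bs was 9 bases. Hbb-bs and Hbb-bt, another beta-globin gene, shared a longest run of 14 bases, so only the alpha promoters were near copies here. Each of the 3 globin windows held 1 CCAAT, 1 CACCC and 1 TATAA. The Alas2 window held 1 GATAA, read as TTATC on the printed strand, and 3 adjoining CACCC, read as GGGTG. Among 32851 promoter windows of the same length, 24.5% held CCAAT, 37.4% CACCC, 14.2% TATAA and 13.3% GATAA, so each of these short motifs is frequent. A match is a run of letters and was not tied to any factor.

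Beta-s was the highest of the 6 genes in 12 of 12 groups. In virgin glands it was at 485 FPKM in Ezh2 KO after prolactin, 645 in Ezh2 KO without it, 782 in control after prolactin and 1284 in control without it. At p13 it was at 1960 FPKM in Ezh1 KO, 751 in Ezh2 KO, 1692 in Ezh1 het Ezh2 KO and 2996 in control. At p18 it was at 572 FPKM in Ezh1 KO, 3376 in Ezh2 KO, 154 in Ezh1 het Ezh2 KO and 85.7 in control. The p18 Ezh2 KO and p13 control groups thus held the highest levels and the p18 control and p18 Ezh1 het Ezh2 KO groups the lowest, a span of 39.4-fold. Whether neighbours in this order differ beyond the variation between mice cannot be read from pooled values. In whole tissue, fewer cells of a type and less RNA per cell cannot be told apart.

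**Figure D1:**
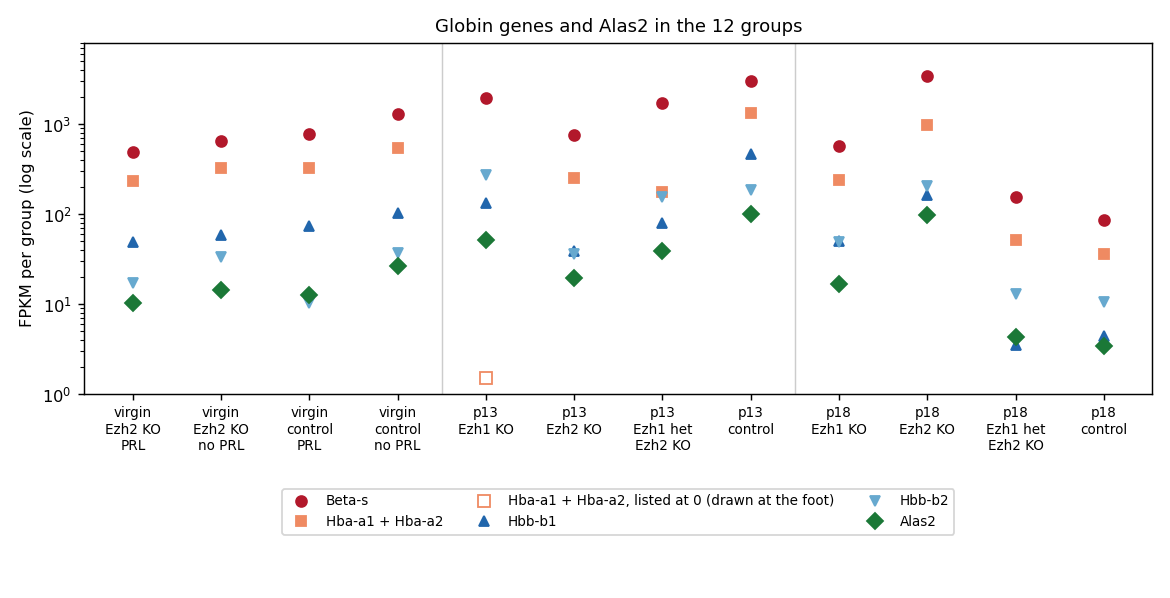
FPKM of the globin genes and Alas2 (log scale) in the 12 groups, 1 pooled value per point, with the Hba-a1 and Hba-a2 values summed and an open square where that sum was listed at 0. The p18 Ezh2 KO and p13 control groups hold the highest levels of Beta-s (3376 and 2996 FPKM) and the p18 control group the lowest (85.7 FPKM).

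Hbb-b1 followed the same broad order with a wider span of 131-fold. In virgin glands it was at 49.2 FPKM in Ezh2 KO after prolactin, 58.2 in Ezh2 KO without it, 72.8 in control after prolactin and 103 in control without it. At p13 it was at 131 FPKM in Ezh1 KO, 39.2 in Ezh2 KO, 78.5 in Ezh1 het Ezh2 KO and 458 in control. At p18 it was at 50.6 FPKM in Ezh1 KO, 160 in Ezh2 KO, 3.48 in Ezh1 het Ezh2 KO and 4.34 in control. The p13 control group stood well above every other group for this gene, and the lowest pair of groups was again the p18 control and the p18 Ezh1 het Ezh2 KO.

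Hbb-b2 departed from that order. In virgin glands it was at 16.8 FPKM in Ezh2 KO after prolactin, 33.2 in Ezh2 KO without it, 10.3 in control after prolactin and 36.8 in control without it. At p13 it was at 272 FPKM in Ezh1 KO, 35.5 in Ezh2 KO, 156 in Ezh1 het Ezh2 KO and 186 in control. At p18 it was at 48.1 FPKM in Ezh1 KO, 204 in Ezh2 KO, 12.9 in Ezh1 het Ezh2 KO and 10.4 in control. Its highest group was therefore p13 Ezh1 KO, and its lowest were the virgin control after prolactin and the p18 control. The ratio of Hbb-b1 to Hbb-b2 ran from 0.270 in p18 Ezh1 het Ezh2 KO to 7.10 in virgin control after prolactin, a span of 26.3-fold, and Hbb-b1 was the higher of the pair in 7 of 12 groups. By contrast Beta-s took a narrow share of the beta-globin sum, from 82.3% in the p13 control to 91.0% in p13 Ezh2 KO. Since the copies can exchange reads, the split between Hbb-b1 and Hbb-b2 is less certain than their sum with Beta-s, which ran from 100.4 FPKM in the p18 control to 3740 in p18 Ezh2 KO.

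**Figure D2:**
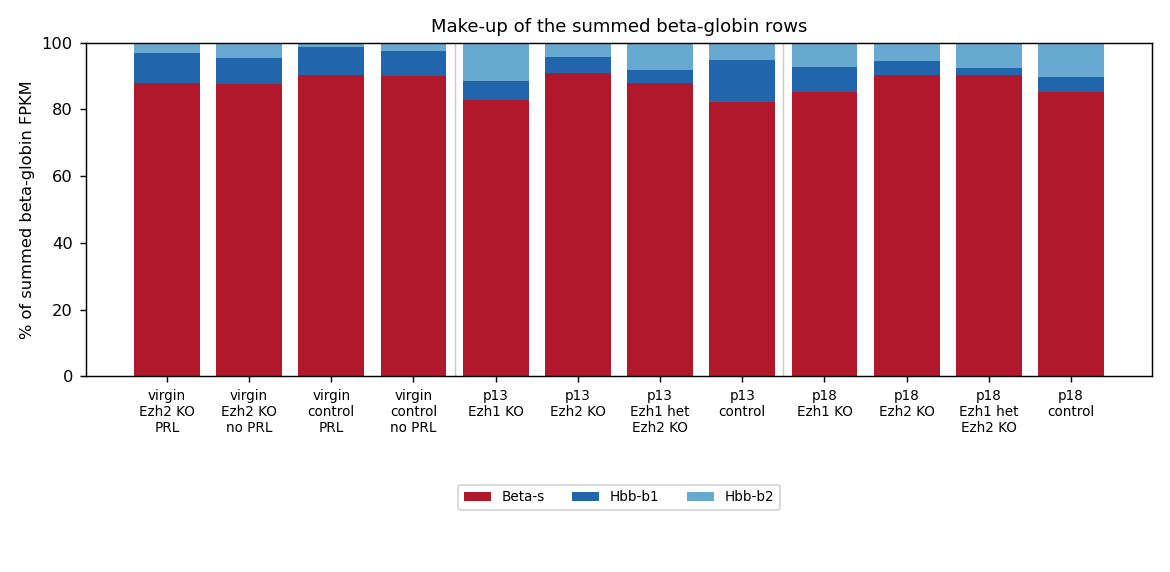
Percent of the summed beta-globin FPKM taken by Beta-s, Hbb-b1 and Hbb-b2 in each of the 12 groups, 1 pooled value per group. Beta-s takes 82.3% to 91.0% everywhere, while Hbb-b1 takes 2.05% to 12.6% and Hbb-b2 1.19% to 11.5%.

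The alpha copies were in no group both at 1 FPKM or more. In virgin glands Hba-a1 was at 235 FPKM in Ezh2 KO after prolactin, 326 in Ezh2 KO without it, 328 in control after prolactin and 536 in control without it. At p13 it was listed at 0 in Ezh1 KO, and it was at 252 FPKM in Ezh2 KO, 0.340 in Ezh1 het Ezh2 KO and 1320 in control. At p18 it was at 239 FPKM in Ezh1 KO, 985 in Ezh2 KO, 50.4 in Ezh1 het Ezh2 KO and 36.2 in control. Hba-a2 was under 1 FPKM in 11 of 12 groups, and the exception was p13 Ezh1 het Ezh2 KO with 174 FPKM, the group in which Hba-a1 was nearly absent. In p13 Ezh1 KO both copies were listed at 0 while Beta-s stood at 1960 FPKM and Alas2 at 51.9.

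In the 10 groups where Hba-a1 reached 1 FPKM, the ratio of summed alpha-globin to summed beta-globin FPKM lay between 0.263 and 0.442, with a median of 0.362. It was 0.0903 in p13 Ezh1 het Ezh2 KO, and 0 in p13 Ezh1 KO. The beta-globin sums of p13 Ezh1 KO and p13 Ezh1 het Ezh2 KO, 2363 and 1926 FPKM, lay within the range of the other 10 groups. Each of 14 housekeeping genes had a value above 0 in every group, including p13 Ezh1 KO. These widely expressed genes do not show how often 0 was listed for other genes of that group. A 0 in a table without counts can be a failed estimate, and whether it was one here was not tested. No fold was computed against it, the comparisons of p13 Ezh1 KO below use 4 readings instead of 5, and the alpha-globin sum of p13 Ezh1 het Ezh2 KO is read with the same reserve. Any globin sum used for p13 Ezh1 KO therefore holds beta-globin alone.

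**Figure D3:**
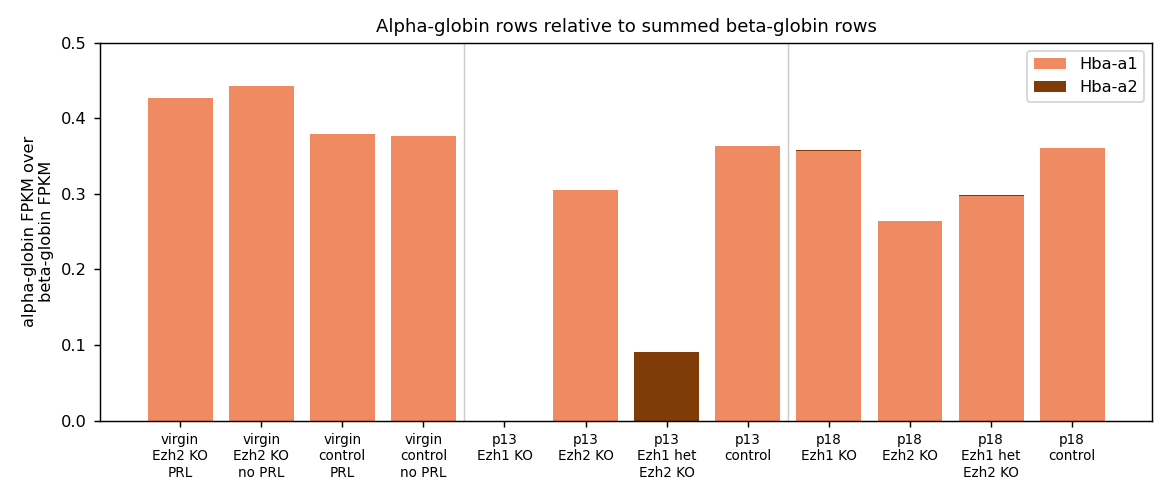
Hba-a1 and Hba-a2 FPKM, stacked, each divided by the summed beta-globin FPKM of the same group, 1 pooled value per group. The ratio lies between 0.263 and 0.442 in 10 groups, is carried by Hba-a2 alone at 0.0903 in p13 Ezh1 het Ezh2 KO, and is 0 in p13 Ezh1 KO.

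Alas2, whose protein supplies the heme of red cells, tracked the beta-globins. In virgin glands it was at 10.3 FPKM in Ezh2 KO after prolactin, 14.3 in Ezh2 KO without it, 12.6 in control after prolactin and 26.5 in control without it. At p13 it was at 51.9 FPKM in Ezh1 KO, 19.2 in Ezh2 KO, 39.0 in Ezh1 het Ezh2 KO and 99.99 in control. At p18 it was at 16.6 FPKM in Ezh1 KO, 98.4 in Ezh2 KO, 4.25 in Ezh1 het Ezh2 KO and 3.39 in control. The p13 control and p18 Ezh2 KO groups were nearly level at the top, and the p18 control was at the bottom, as for Beta-s. The ratio of the beta-globin sum to Alas2 stayed between 29.7 and 68.7 over all 12 groups, a span of 2.32-fold, against 37.2-fold for the beta-globin sum itself. Across the 12 groups Pearson's r between log2 values of Alas2 and of the beta-globin sum was 0.97, which is given as a description because the points come from the same libraries and the genes were chosen together. Alas1, the enzyme of other tissues, was above Alas2 in 9 groups, and Alas2 exceeded it in p13 Ezh1 KO, the p13 control and p18 Ezh2 KO, at 1.24, 1.41 and 3.45 times its FPKM.

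At p18 the comparison asked how red cell transcripts stood in glands labelled Ezh2 KO, Ezh1 KO or Ezh1 het Ezh2 KO, near the end of pregnancy. In Ezh2 KO all 5 readings lay above control. The fold was 39.4 for Beta-s, 36.9 for Hbb-b1, 19.6 for Hbb-b2, 27.2 for the alpha-globin sum and 29.1 for Alas2. On the log2(FPKM + 1) scale, on which differences between groups are given from here on, these were 5.28, 4.92, 4.17, 4.73 and 4.50. The beta-globin sum had a difference of 5.20. Over all 14273 genes that reached 1 FPKM in some group, 2.38% were higher by 1 log2 unit or more, the threshold used for a call. The rule for the genes used these contrasts, so nothing is read from the count of 5 against that share. The globin sum was 0.600% of all FPKM in Ezh2 KO and 0.0139% in control. With milk protein genes left out of the total it was 0.863% in Ezh2 KO and 0.0267% in control.

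The p18 Ezh1 KO group lay between those groups. All 5 readings were higher than in control, by 2.72 for Beta-s, 3.27 for Hbb-b1, 2.11 for Hbb-b2, 2.69 for the alpha-globin sum and 2.01 for Alas2, with 1.21% of all genes higher by the threshold. As folds these ran from 4.63 for Hbb-b2 to 11.7 for Hbb-b1. The beta-globin sum had a difference of 2.73. In Ezh1 het Ezh2 KO none of the 5 readings reached the threshold against control, in either direction, and the differences ran from -0.25 for Hbb-b1 to 0.83 for Beta-s, with 2.77% of all genes past the threshold in either direction. Set against Ezh2 KO, that group was lower in all 5 readings, with a median of -4.25 and 1.40% of all genes lower. The beta-globin sum of Ezh1 het Ezh2 KO differed by 0.75 from control and by -4.45 from Ezh2 KO. The 3 comparisons with control share its 1 pooled value, and that value was the lowest of the series for Beta-s and Alas2. Each is therefore given side by side, and whether the genotypes differed from one another was not tested.

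At p13 the control group held the highest summed globins. In the group labelled Ezh2 KO all 5 readings were lower than in control, with Hbb-b1 11.7-fold lower, the alpha-globin sum 5.24-fold, Hbb-b2 5.22-fold, Alas2 5.20-fold and Beta-s 3.99-fold. The log2 differences were -3.51, -2.39, -2.35, -2.32 and -1.99, and 6.59% of all genes were lower by the threshold. The beta-globin sum had a difference of -2.14 in Ezh2 KO. In Ezh1 het Ezh2 KO, 3 of 5 readings were lower than in control, namely Hbb-b1 by 5.83-fold, Alas2 by 2.56-fold and the alpha-globin sum with the reservation above, with 3.19% of all genes lower. Beta-s there had a difference of -0.82, Hbb-b2 of -0.25 and the beta-globin sum of -0.92. In Ezh1 KO, 1 of 4 readings was lower by the threshold, with 2.28% of all genes lower, and this was Hbb-b1 at -1.80. The differences of Beta-s, Hbb-b2 and Alas2 in Ezh1 KO were -0.61, 0.55 and -0.93, and that of the beta-globin sum was -0.62. Against Ezh2 KO, the Ezh1 het Ezh2 KO group was higher in 2 of 5 readings, Hbb-b2 and Beta-s, with 2.80% of all genes higher. Both are beta rows, and the beta-globin sum had a difference of 1.22 in that comparison.

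Levels were also followed along the stages within each genotype. In control, the beta-globin sum was 1424 FPKM in virgin glands without prolactin, 3640 at p13 and 100.4 at p18. All 5 readings were higher at p13 than in virgin control, with a median of 1.88 and 9.12% of all genes higher. All 5 were lower at p18 than at p13, with a median of -5.11 and 19.1% of all genes lower, while the median over all genes was -0.46. In Ezh2 KO, the beta-globin sum was 736 FPKM in virgin glands without prolactin, 826 at p13 and 3740 at p18. None of the 5 readings reached the threshold between virgin and p13 in Ezh2 KO, with 20.1% of all genes past it in either direction, and all 5 were higher at p18 than at p13, with a median of 2.17 and 1.10% of all genes higher. In Ezh1 het Ezh2 KO all 5 readings were lower at p18 than at p13, with a median of -3.45 and 16.0% of all genes lower. In Ezh1 KO all 4 readings that could be compared were lower at p18, with a median of -1.68 and 12.1% of all genes lower. Ezh2 KO was thus the 1 genotype of the 4 whose pooled globin values were higher at p18 than at p13. The alpha-globin sum of Ezh1 KO, listed at 0 at p13, is left out of that statement, and the difference between genotypes was not tested.

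In virgin glands the median difference of the readings was under 1 log2 unit in each of the 4 comparisons. Without prolactin, the group labelled Ezh2 KO had a median difference of -0.82 from control, with none of 5 readings past the threshold and 4.26% of all genes past it in either direction. After prolactin the median was -0.48, and again none of 5 readings passed the threshold, as 3.48% of all genes did in either direction. In control, glands after prolactin had lower Hbb-b2, by -1.75, and lower Alas2, by -1.02, than glands without it, so that 2 of 5 readings passed the threshold and 1.72% of all genes were lower. The beta-globin sum had a difference of -0.72 there, under the threshold. In Ezh2 KO, glands after prolactin had a median difference of -0.43 from glands without it, and none of 5 readings passed the threshold, as 6.82% of all genes did in either direction. The highest virgin group was thus the untreated control for all 5 readings.

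Genes of red cells that the selection had not used were then read from 5 lists with 53 genes, of which 49 were in the table and 29 reached 1 FPKM. The lists cover other globins, heme synthesis, the red cell membrane, erythroid regulators and erythroid maturation, and they were assembled with earlier results of these data known. The 5 other globin genes in the table, which include the embryonic Hbb-y, Hbb-bh1 and Hba-x, stayed under 1 FPKM in every group and reached at most 0.628 FPKM. The signal was thus of adult globins.

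A gene of late red cell maturation followed the order of the globins. Bpgm, whose product makes the 2,3-bisphosphoglycerate that lowers the oxygen affinity of hemoglobin, was at 30.8 FPKM in Ezh1 KO, 19.0 in Ezh2 KO, 24.3 in Ezh1 het Ezh2 KO and 50.1 in control at p13. At p18 Bpgm was at 14.2 FPKM in Ezh1 KO, 36.9 in Ezh2 KO, 10.2 in Ezh1 het Ezh2 KO and 7.66 in control. Bpgm was thus highest in the p13 control at that stage and in Ezh2 KO at p18, as Alas2 was. Its span over the 12 groups was 6.53-fold, narrower than that of the globins, and it kept 7.66 FPKM where globins were lowest.

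Genes of the red cell membrane were low. Slc4a1, which encodes the band 3 anion exchanger, was at 1.01 FPKM in Ezh1 KO, 0.484 in Ezh2 KO, 0.695 in Ezh1 het Ezh2 KO and 4.22 in control at p13. At p18 Slc4a1 was at 0.287 FPKM in Ezh1 KO, 1.22 in Ezh2 KO, 0.0596 in Ezh1 het Ezh2 KO and 0.0305 in control. Of 12 membrane genes in the table, 8 stayed under 1 FPKM in every group and 10 had their highest level in the p13 control, the exceptions being Icam4 and Xk. The share of all genes with their highest level in that group was not computed, so nothing is read from the count of 10. Of the 4 that could be compared, Slc4a1 and the ankyrin gene Ank1 were lower by the threshold in each of Ezh1 KO, Ezh2 KO and Ezh1 het Ezh2 KO at p13 (medians -0.95, -1.27 and -1.28). At p18, Slc4a1 was higher in Ezh2 KO (median of the 4 genes 0.05), and none of the 4 passed the threshold in Ezh1 KO or Ezh1 het Ezh2 KO. Ank1 was at 3.34 FPKM in the p13 control, but at p18 at 0.0952 in Ezh2 KO against 0.0579 in control. The spectrin gene Spnb1 was at 1.54 FPKM in Ezh2 KO against 2.69 in control at p18, so the order of Slc4a1 there was not that of the whole list. Skeletal muscle markers summed to 11186 FPKM in the p13 control and 25.4 in p18 Ezh2 KO. The part of muscle in the values of these membrane genes was not tested.

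Regulators of red cell formation stayed near the floor. Gata1, the transcription factor that drives erythroid genes, reached at most 0.380 FPKM, and Klf1, which activates adult beta-globin, at most 0.319. Together with Rhag, Epb4.2, Gfi1b, Nfe2 and Hemgn they did not exceed 0.563 FPKM in any group. Of 8 regulators 5 stayed under 1 FPKM everywhere, and none of the other 3, which were Tal1, Zfpm1 and the erythropoietin receptor gene Epor, passed the threshold in any of the 18 comparisons. In the pair of groups with the highest Beta-s, Gata1 was at 0.0900 FPKM in p18 Ezh2 KO and 0.238 in the p13 control, while Klf1 was at 0.199 FPKM in p18 Ezh2 KO and 0.253 in the p13 control. The p18 control had Gata1 at 0.0213 and Klf1 at 0.175 FPKM, and p13 Ezh2 KO had 0.0634 and 0.184. At such levels neither gene could reach the threshold in log2(FPKM + 1), so small differences do not show that they were unchanged.

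**Figure D4:**
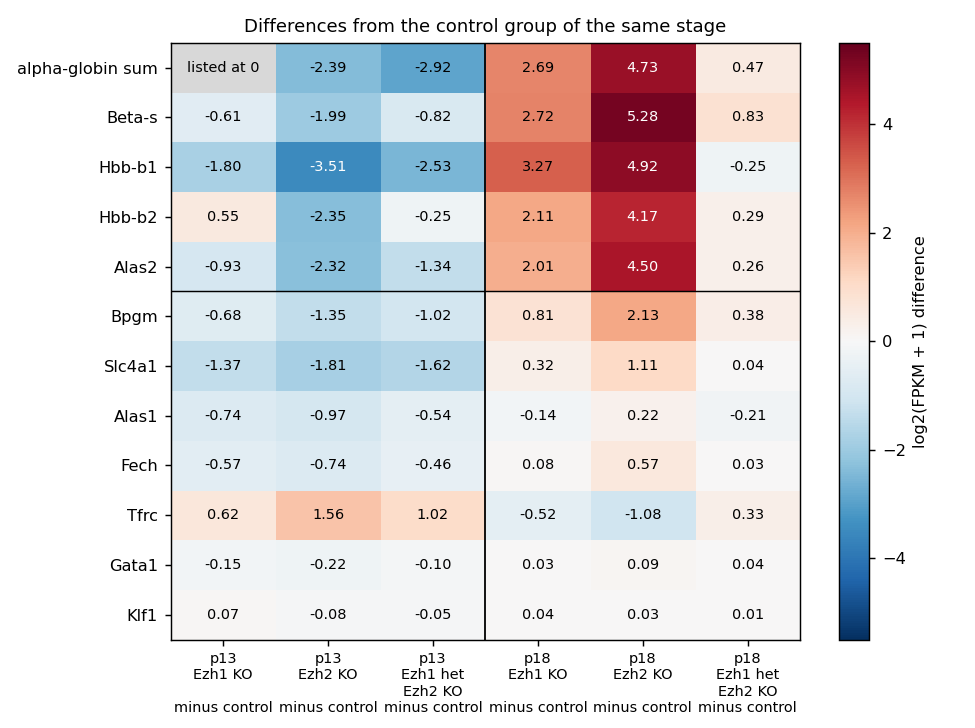
Differences in log2(FPKM + 1) between each KO genotype and the control group of the same stage, 1 pooled value per group, for the globin readings and Alas2 (above the line) and other red cell genes (below it). At p13 most values above the line are negative and at p18 most are positive, with Beta-s at -1.99 and 5.28 in Ezh2 KO. Gata1 and Klf1 stay within 0.22 of 0, but at levels of at most 0.380 and 0.319 FPKM this scale leaves them little room to differ.

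In the comparisons of KO groups with control, the rest of the heme pathway did not go with Alas2. Of 12 other heme synthesis and carrier genes, none passed the threshold in any p13 comparison with control (medians 0.00, -0.03 and 0.08 in Ezh1 KO, Ezh2 KO and Ezh1 het Ezh2 KO). At p18, 1 of 12 passed it in Ezh1 KO and the same gene in Ezh2 KO. This was Cpox, which encodes coproporphyrinogen oxidase and was lower, at 6.49 FPKM in Ezh1 KO and 6.48 in Ezh2 KO, against 14.4 in control. The 11 genes other than Alas1 spanned 1.34-fold to 3.14-fold over all groups. Alas1 was higher after prolactin in both genotypes, at 196 FPKM against 62.8 without prolactin in Ezh2 KO and at 247 against 70.6 in control, while Alas2 was at 10.3 against 14.3 FPKM in Ezh2 KO and at 12.6 against 26.5 in control. Between stages, Alas1 and Fech were lower in control at p18 than at p13, by a difference of -1.51 for Alas1 and -1.48 for Fech, where Alas2 had -4.52. In Ezh1 het Ezh2 KO at p18 against p13, Alas1 (-1.18) and the mitochondrial iron carrier gene Slc25a37 (-1.03) were lower. None of the 12 passed the threshold between these stages in Ezh1 KO or Ezh2 KO. Fech, which encodes the enzyme that inserts iron into protoporphyrin to make heme, had a difference of 0.57 from control in p18 Ezh2 KO and -0.74 in p13 Ezh2 KO, both under the threshold.

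The maturation list was mixed. Of its 10 comparable genes, 1 was higher and 1 lower in Ezh2 KO at p18 (median 0.16), and 2 were higher and 2 lower in Ezh2 KO at p13 (median -0.32). Tfrc, the transferrin receptor gene, ran against the globins in Ezh2 KO at both stages, and Car2, a carbonic anhydrase gene, at p13 only, and mammary and other cells also express both. Tfrc was at 29.6 FPKM in Ezh2 KO against 63.9 in control at p18, and at 40.5 against 13.1 at p13. Car2 was at 80.9 FPKM in Ezh2 KO against 76.5 in control at p18, and at 104 against 31.8 at p13. In Ezh1 KO none of the 10 passed the threshold at p13 (median -0.24) or p18 (median -0.07). In Ezh1 het Ezh2 KO none passed it at p18 (median 0.13), and Tfrc was higher and Bpgm lower at p13 (median -0.18).

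Genes that handle hemoglobin and heme outside red cells were compared as well. Hp, whose product haptoglobin binds free hemoglobin and is also made by adipocytes, was at 157 FPKM in Ezh1 KO, 347 in Ezh2 KO, 156 in Ezh1 het Ezh2 KO and 49.3 in control at p18. All 3 KO genotypes were thus above control for Hp, including the one whose globins were near control. Hmox1, the heme oxygenase gene, was at 53.9 FPKM after prolactin against 27.6 without it in Ezh2 KO, and at 263 against 27.4 in control. Of 9 genes in this list, Hp was the 1 past the threshold in each p18 comparison with control. At p13 the scavenger receptor gene Cd163 was lower in Ezh2 KO and Hpx, which encodes hemopexin, was higher in Ezh1 KO, each the 1 gene of 9 past the threshold.

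The genes whose pattern was most like that of the globins were sought among 10628 protein-coding genes that reached 5 FPKM, by Pearson's r with the log2 globin sum over the 12 groups. The highest of those reported was Bpgm (r = 0.93), followed by Cd47 (0.86), Mmp23 (0.85), 2810453I06Rik (0.84), Podxl2 (0.82), Ddah2 (0.81), Haghl (0.79), Pkia (0.78), Pcbp4 (0.77) and Nrgn (0.77). CD47 is a surface protein of red cells and of most other cells, and its span over the groups was 2.13-fold, from 22.9 FPKM in the p18 control to 48.7 in the p13 control. All points share 12 pooled columns, so r is a description. With the p13 control left out, 7 of these 10 genes stayed among the 10 highest, and with p18 Ezh2 KO left out 2 did, Mmp23 at rank 7 and Bpgm at rank 10, each with r = 0.92. Both settings were chosen after the values were seen.

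Markers of other cells were set beside the globins. Of 12 skeletal muscle markers, all 12 were lower than in control in each KO genotype at p13 (medians -2.04 for Ezh1 KO, -8.42 for Ezh2 KO and -8.14 for Ezh1 het Ezh2 KO). Their summed level there was 2805, 31.8 and 52.97 FPKM in those genotypes and 11186 in control. At p18 muscle went another way from the globins in Ezh2 KO, where 8 of 12 markers were lower and the sum was 25.4 FPKM against 61.2 in control, whereas in Ezh1 KO all 12 were higher and the sum was 202. Mb, the muscle globin gene myoglobin, had 51.4 FPKM in the p13 control, against 2.51 to 24.2 in the other groups. No muscle marker was listed at 0 in any group.

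Adipocyte markers ran with the globins at both stages in Ezh2 KO. At p18, 7 of 13 were higher in Ezh2 KO (median 1.04), with a summed level of 16952 FPKM against 6935 in control, and at p13 9 of 13 were lower (median -1.35), with 16051 against 41666. In Ezh1 KO at p18, 3 of 13 were higher (median 0.81), with a sum of 12615. None of the markers was listed at 0. The sum was highest in virgin groups, at 48395 to 78517 FPKM, where globins were intermediate. The fold between p18 Ezh2 KO and control was larger for each globin reading than for the summed adipocyte markers, and the part of adipose or muscle tissue in the globin values was not tested.

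Markers of other blood cells were mixed. The B and T cell list held 11 markers, among them Ptprc, which other leukocytes also express. None of the 11 passed the threshold in Ezh2 KO against control at either stage. Their summed levels were 13.9 FPKM against 16.9 at p18 and 18.97 against 17.7 at p13. In virgin glands, by contrast, all 11 were higher in Ezh2 KO without prolactin than in control without it, at a sum of 280 against 22.1 FPKM, and all 11 were higher in control after prolactin than without it, at 223 against 22.1. In Ezh2 KO the prolactin comparison had the opposite sign, with all 11 lower after prolactin at a sum of 9.86 against 280 FPKM. In Ezh1 het Ezh2 KO against control, 10 of 11 were higher at p13, with sums of 76.9 against 17.7 FPKM, and 6 of 11 at p18, with 52.6 against 16.9. Neutrophil markers were summed at 440 FPKM after prolactin against 37.6 without it in Ezh2 KO, and at 235 against 23.6 in control. At p18, S100a8 and S100a9 were higher in Ezh2 KO, 2 of 8 compared, with a list sum of 35.1 against 9.43 FPKM, and Camp was listed at 0 in the p13 control. Platelet markers summed to 37.3 FPKM in Ezh2 KO against 24.6 in control at p18, where Ppbp was the 1 of 3 past the threshold, and to 43.3 against 93.5 at p13, where Ppbp and Pf4 were lower. Gp6, a platelet receptor gene, was listed at 0 in p18 Ezh1 het Ezh2 KO. The 7 endothelial markers, none of which passed the threshold in any KO comparison with control at p13 or p18, summed to 163 against 136 FPKM at p18 and 222 against 280 at p13. The part of leukocytes, platelets and vessels in the globin values was not tested.

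**Figure D5:**
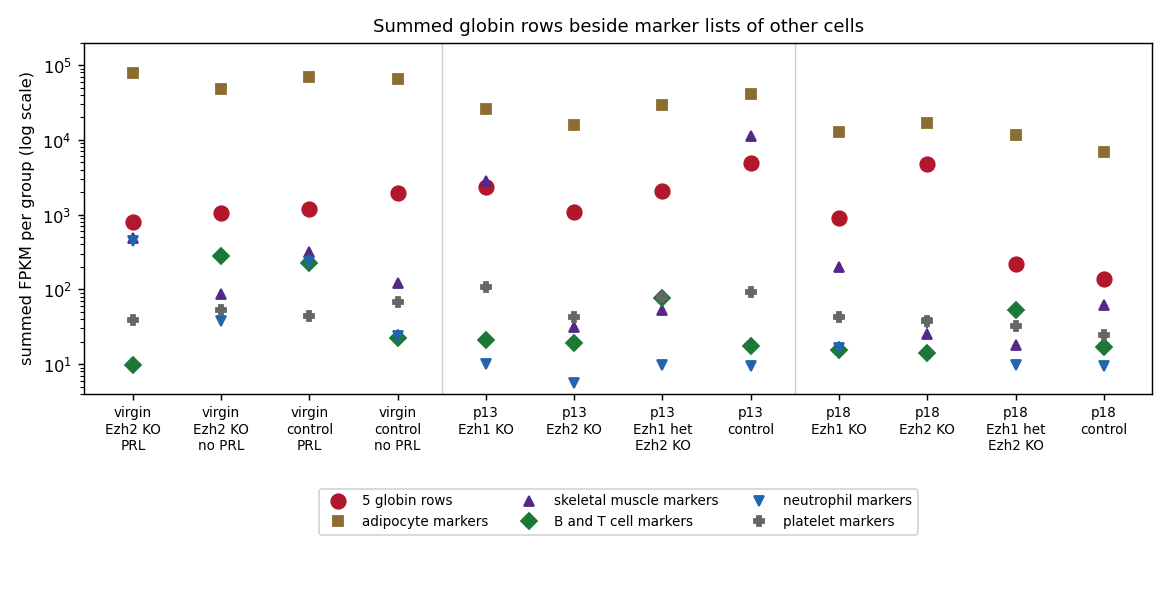
Summed FPKM (log scale) of the 5 globin genes and of marker lists for adipocytes, skeletal muscle, B and T cells (with Ptprc), neutrophils and platelets in the 12 groups, 1 pooled value per group. Muscle markers stand at 25.4 FPKM in p18 Ezh2 KO and at 11186 in the p13 control, the groups with the highest globin sums of 4726 and 4960 FPKM.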

How the data were processed

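Whole mammary tissue RNA was prepared with Trizol and RNeasy columns and made into poly(A) libraries with TruSeq kits, per the labels' protocols. The authors deposited FPKM, 1 value per gene and group. The way libraries were combined is not stated in the sources used here. TopHat, Cufflinks and Cuffdiff, BWA and Bowtie, HOMER, and CASAVA, FastQC and Trim Galore are listed with the build mm9 but without role, per the submitters' processing notes. A limma fit on log2(FPKM + 1) was planned if libraries had columns of their own, and it could not be fitted to single values.

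Computed here were ratios of FPKM and differences of log2(FPKM + 1), a scale that understates differences of low genes. Genes with at least 1 FPKM in some group were kept (14273), and a difference of 1 or more was a call. A reading at 0 in either group was left out. The members and 19 gene lists were chosen with earlier results of these data known. Named were the 6 genes, red cell list genes reaching 5 FPKM, up to 3 genes of each other list with large differences, and the 10 genes most like the globin sum by r. Low red cell genes, defining markers and genes counted singly were named beyond that rule, after their values were seen. Gene types and promoters came from RefSeq on GRCm38.p6, with 20004 genes matched by symbol, 2339 by synonym and 209 unmatched. Alternatives were pseudocounts of 0.1 and 5, no filter or 5 FPKM, 3 rescalings planned and 1 added after seeing the data, and beta-globin alone, also added. The calling of differences and the common-sum scaling were checked on a copy of the deposited values into which known differences had been set. The other functions were not checked in that way. A few genes are not reported here, and the lists and the ranking leave them out. The 9 ChIP and input libraries were not analysed here. The tools were SciPy 1.17.1, NumPy 2.4.6 and pandas 2.3.3 in Python 3.11.15, with matplotlib 3.10.9 for plots. Depth is unknown, so no interval or floor is given.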

Additional observations from a re-analysis of the deposited data

Results flagged for a closer look

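Several readings lay on opposite sides of control at the 2 stages of pregnancy, and in each case the difference between stages was not tested, since each group is 1 pooled value. In Ezh2 KO this held for all 5 readings. Beta-s differed from control by 5.28 at p18 and -1.99 at p13 on the log2(FPKM + 1) scale. The Hbb-b1 difference was 4.92 at p18 and -3.51 at p13, and that of Hbb-b2 was 4.17 at p18 and -2.35 at p13. The alpha-globin sum differed by 4.73 at p18 and -2.39 at p13, and Alas2 by 4.50 at p18 and -2.32 at p13. In Ezh1 KO, Hbb-b1 alone passed the threshold in opposite directions, at 3.27 at p18 and -1.80 at p13. Hbb-b2, with which it can exchange reads, differed by 2.11 at p18 and 0.55 at p13. The beta-globin sum differed by 2.73 at p18 and by -0.62 at p13, under the threshold, so the result holds for the Hbb-b1 row and not for the sum. Beta-s made up 82.9% of that sum in p13 Ezh1 KO. Whether the Hbb-b1 result depends on the split between copies was not tested.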

How the results depend on the processing

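No paired analysis was possible because each column is a pooled value of a group, which also leaves no library to leave out. No difference of the summed globins or of Alas2 that passed the threshold changed sign under any alternative tried. Of 126 alternative values for the globin sum 118 stayed on their side of the threshold, as did 102 of 108 for Alas2. The exceptions lay near it. In p13 Ezh1 KO against control the globin sum was at -1.07, with the alpha copies of Ezh1 KO counted as listed, at 0. With beta-globin alone it was at -0.62, under the threshold, so the call rests on that 0. It was at -0.98 with a common upper quartile and -0.99 with a common sum without milk or member genes. In p13 Ezh1 het Ezh2 KO against control it was at -1.24, and at -0.92 with beta-globin alone. Against Ezh2 KO that group was at 0.96, and at 1.22 with beta-globin alone, 1.11 with a common sum and 1.05 with a common upper quartile. Alas2 in that comparison was at 0.98, and at 1.02 with a pseudocount of 0.1, 1.13 with a common sum, 1.06 with a common upper quartile and 1.01 with either sum without milk. After prolactin in control, Alas2 was at -1.02, and at -0.84 with a pseudocount of 5. In Ezh1 KO at p18 against p13 the globin sum was at -1.38, and at -0.80 with a common upper quartile. The alpha copies are again counted at 0 at p13 there, and the beta-globin sum alone had -1.82. Apart from beta-globin alone and the pseudocounts, the alternatives differ from the main setting in scaling, and the cause was not tested further. The share of all genes called depended more on the setting. It ran from 1.23% to 4.25% for higher genes in p18 Ezh2 KO, from 3.38% to 9.14% for lower genes in p13 Ezh2 KO, and from 9.35% to 42.5% for lower genes in control at p18 against p13. The ranges for lower genes at p18 against p13 were widest in Ezh1 KO, from 3.97% to 52.2%, and Ezh1 het Ezh2 KO, from 4.58% to 58.0%. A common sum gave the highest value in these 3 stage comparisons. A common sum shifted the median of all genes in control at p18 against p13 by -0.48 and a common upper quartile by 0.43. Depth is unknown and limits what the low membrane and regulator genes can show.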
